A study of Mus musculus with 4 samples.

Results

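Sox9, Sox4, Cdh6, Cd24a, Vim and Prom1 are 6 of the 32285 genes counted in Visium spatial transcriptomics sections of normal and ischemic mouse kidney. They were chosen by name as genes linked to tubule dedifferentiation and repair, with earlier results of these data known. All 6 were detected in each of the 4 sections and all 6 passed the filter on low counts. The study captured polyadenylated RNA from 10 µm sections of left kidney on barcoded spots, where a spot is a small region that can hold several cells of different types. The animals of both groups were wild-type C57BL/6J males aged 7 to 8 weeks. The 2 normal sections came from kidneys without ischemia, and the 2 ischemic sections came from mice whose renal pedicles were both clamped for 30 minutes and whose kidneys were taken 24 hours after ischemia. The 4 sections lay in separate capture areas of 1 slide. The methods describe 2 mice per condition and repeat sections of each, and the labels do not tie a section to a mouse. The 2 sections of a group may therefore share an animal. The whole-section p-values below measure only the spread between sections. Those for tissue zones came from fits over all sections and zones together, in which all zones share 1 estimate of the spread per gene. For ischemic against normal within a zone, the fit counts the zones of a section as separate samples, although they share a library. Neither kind is known to measure the spread between mice.

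A differentiated tubule cell that survives ischemia can lose part of its specialised program, re-express genes of the developing nephron, and then divide or redifferentiate. Sox9 and Sox4 encode transcription factors with an HMG-box DNA-binding domain that act in the embryonic kidney, and Sox9 is known to be switched on again in injured proximal tubule. Cdh6 encodes cadherin-6, an adhesion protein of early nephron epithelium. Cd24a encodes a small glycosylated surface protein and Prom1 encodes prominin-1 (CD133), a protein of membrane protrusions, and both are used as markers of immature or progenitor-like epithelium. Vim encodes vimentin, the intermediate filament of mesenchymal cells, which injured epithelium can also make.

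In the GRCm38 annotation all 6 are protein-coding. Sox9 lies on chromosome 11 from 112782224 to 112787760 on the plus strand, and Sox4 on chromosome 13 from 28948919 to 28953713 on the minus strand. Cdh6 lies on chromosome 15 from 13028701 to 13173675 (minus strand) and Cd24a on chromosome 10 from 43578284 to 43584265 (plus strand). Vim lies on chromosome 2 from 13573927 to 13582826 (plus strand) and Prom1 on chromosome 5 from 43993620 to 44102032 (minus strand). The counts are gene totals, so they do not separate exons or isoforms.

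Promoter sequence from RefSeq (GRCm38.p6) was matched for 4 of the 6 genes, namely Sox4, Cdh6, Vim and Prom1. The bases upstream of the transcription start are printed for Sox4 and Cdh6, whose windows lay outside the annotated gene, to show what stands ahead of a repair factor and of an adhesion gene that both rose after ischemia. The Sox4 window is chr13:28953714-28953949 and the Cdh6 window is chr15:13173676-13173925, both on the minus strand and read 5′ to 3′ towards the gene. Capitals mark matches on either strand to the 4 motifs searched, which do not overlap here. The letters ACAAAG stand for the core that SOX factors read, and a CCAAT box is spelled by its own name. The AP-1 site was searched as TGANTCA and the core promoter's TATA box as TATAAA.
Sox4: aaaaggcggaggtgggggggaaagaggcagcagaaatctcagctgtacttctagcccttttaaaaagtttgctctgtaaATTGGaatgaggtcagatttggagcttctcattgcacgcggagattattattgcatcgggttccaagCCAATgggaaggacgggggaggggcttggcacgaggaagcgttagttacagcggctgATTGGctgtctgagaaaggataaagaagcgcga
Cdh6: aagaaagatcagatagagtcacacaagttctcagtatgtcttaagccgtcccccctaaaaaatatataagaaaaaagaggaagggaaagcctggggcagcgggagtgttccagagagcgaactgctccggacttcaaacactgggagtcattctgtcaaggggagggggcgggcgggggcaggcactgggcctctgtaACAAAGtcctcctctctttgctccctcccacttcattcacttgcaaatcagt
The 236 bases ahead of Sox4 held 3 CCAAT boxes, 1 as written and the others on the opposite strand, and no match to the other motifs. A CCAAT box stood in 32.7% of all 32851 promoters over a window of that length. The 250 bases ahead of Cdh6 held 1 SOX core and no match to the other motifs, where 16.5% of all promoters held a SOX core. These matches are descriptions of letters and were not tied to binding.

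The sections held between 25957128 and 44528078 UMIs (unique molecular identifiers, each standing for 1 captured transcript) over 2401 to 2682 tissue spots, with a median of 8656 to 16162.5 UMIs per spot. Levels below are in CPM, a gene's UMIs over all UMIs of the section or zone on a fixed scale, adjusted by TMM, edgeR's correction for library composition. The proximal tubule endocytic receptor gene Lrp2 stood at 664 and 529 CPM in the normal sections and at 126 and 116 CPM in the ischemic sections, so the tissue carried its defining tubule transcript in each section. Havcr1, the injury gene for KIM-1, had 1.17 and 2.14 CPM in the normal sections and 1288 and 1280 CPM in the ischemic sections. Lcn2, the injury gene for NGAL, rose from 5.94 and 7.97 CPM to 2794 and 3284 CPM, so both genes separated the labelled groups.

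The first comparison asked which of the 6 genes differed between ischemic and normal whole sections. All 6 were higher in the ischemic kidney by the quasi-likelihood test of edgeR, adjusted over 15305 genes after Benjamini and Hochberg (adjusted p under 0.05). In the same comparison 60.6% of all genes tested passed, and 31.0% of all genes tested passed upward, so a call by itself is common here and the sizes carry more than the count. The median log2 fold change was 1.72 over the 6 genes and 0.04 over all genes tested. By marker genes scored within each section, the inner medulla made up 12.2% and 11.5% of ischemic spots against 5.12% and 8.35% of normal spots. The inner stripe made up 17.9% and 20.9% against 14.1% and 12.8%. The part that a change of these markers with ischemia has in the shares was not tested. Nor was the part of this make-up in the whole-section values. In a section a spot's transcripts come from many cells, so more cells of a type and more RNA per cell cannot be told apart.

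Sox9 showed the steepest rise of the 6. It was nearly silent in the normal kidney, with 15 and 6 UMIs in the whole of normal sections 1 and 2, or 0.407 and 0.217 CPM. The ischemic sections held 432 and 435 UMIs, or 12.7 and 15.2 CPM. Every ischemic value stood far above every normal value, and the log2 fold change was 5.41 ± 0.25 (SE, n = 2 sections a group, edgeR adjusted p = 4.01e-07), a 42.5-fold difference.

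Sox4, the other SOX factor, was already present in the normal kidney and rose less. It measured 7.75 and 9.28 CPM in the normal sections and 26.2 and 28.7 CPM in the ischemic sections. The sections of a group lay close together, and the difference was 1.70 ± 0.12 on the log2 scale (edgeR adjusted p = 3.79e-06), or 3.24-fold.

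Cdh6 was sparsely counted, with 50 and 58 UMIs in the normal sections against 139 and 123 UMIs in the ischemic sections. Its levels were 1.36 and 2.10 CPM against 4.09 and 4.29 CPM, and the groups did not overlap. The log2 fold change was 1.297 ± 0.24 (edgeR adjusted p = 0.00154).

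Cd24a was well covered, with 7764 and 6119 UMIs in the normal sections and 36177 and 31301 UMIs in the ischemic sections. Its level rose from 210 and 222 CPM to 1065 and 1092 CPM, a log2 fold change of 2.32 ± 0.15 (edgeR adjusted p = 1.97e-06), or 4.99-fold. Replicates differed by far less than the groups.

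Vim rose from 35.3 and 47.2 CPM to 137 and 140 CPM. The log2 fold change was 1.75 ± 0.14 (edgeR adjusted p = 9.93e-06), with the normal sections farther apart than the ischemic sections. Prom1 changed least, from 35.0 and 37.0 CPM to 46.1 and 56.6 CPM, a log2 fold change of 0.51 ± 0.12 (edgeR adjusted p = 0.00421). The Prom1 call rested on ischemic section 2, since without it the value was 0.37 with an adjusted p of 0.097.

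**Figure D1:**
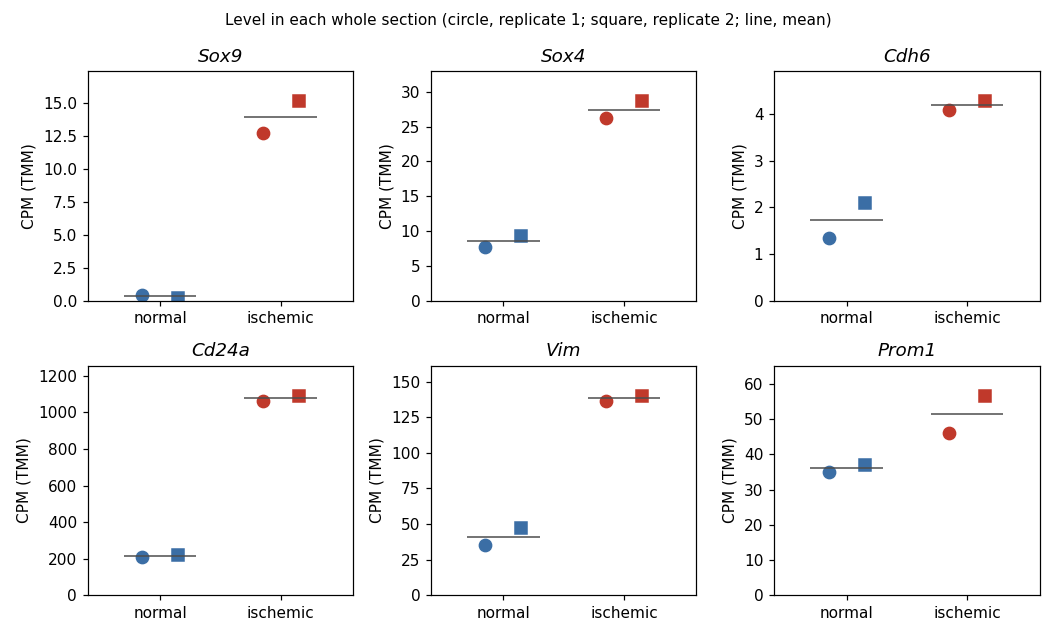
Level of each of the 6 genes (TMM-scaled CPM, vertical axis starting at 0) in the 2 normal and 2 ischemic whole sections, with circles for replicate 1, squares for replicate 2 and a line at the mean of each group. Sox9 goes from 0.407 and 0.217 CPM to 12.7 and 15.2 CPM, while Prom1 shows the smallest relative step, from 35.0 and 37.0 CPM to 46.1 and 56.6 CPM.

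The second comparison asked whether the rise differed along the corticomedullary axis. Each spot was placed in the cortex, the outer stripe of the outer medulla, the inner stripe, the inner medulla or the pelvis by marker genes of these zones, none of them among the 6. Zones hold 106 to 1178 spots a section. When spots were scored without their neighbours, ischemic pelvis spots were the least certain. Of these 28.3% and 28.5% kept that zone, against 66.4% and 63.0% in the normal sections. Inner stripe spots kept their zone in 57.8% to 64.4%. Of ischemic inner medulla spots, 118 of 292 and 140 of 300 had a margin under 0.25 SD between their highest zone score and the next. Of normal inner medulla spots, 22 of 134 and 43 of 224 did.

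Across zones the 6 genes fell into different patterns (the plot of levels by zone). In the cortex 5 of 6 rose, where 40.1% of 14174 genes tested were called and 20.2% were called upward. In the outer stripe 5 of 6 rose (56.9% of genes called, 27.4% upward), and in the inner stripe 6 of 6 rose (48.2% called, 22.2% upward). In the inner medulla 4 of 6 rose (35.1% called, 13.9% upward), and in the pelvis 5 of 6 rose (25.2% called, 10.7% upward). None of the 6 fell in any zone by this test. From cortex through outer stripe, inner stripe and inner medulla to pelvis, the median log2 fold change of the 6 genes was 1.09, 1.93, 2.12, 1.86 and 1.70, whereas that of all genes tested was -0.07 for the inner medulla, -0.06 for the pelvis and under 0.01 in size elsewhere.

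Sox9 was highest in the outer stripe of both ischemic sections, the zone that holds the straight segment of the proximal tubule. It measured 19.1 and 23.7 CPM there, 13.6 and 17.6 CPM in the cortex, and 16.0 and 11.1 CPM in the pelvis. The inner stripe had 7.84 and 9.71 CPM and the inner medulla 6.92 and 7.05 CPM, so the deep zones lay below the outer zones in both sections. The outer stripe exceeded the cortex by 0.46 ± 0.18 on the log2 scale, which missed the threshold in edgeR's test with section as a block (adjusted p = 0.0533) and passed it in 6 of 11 alternative settings. The inner medulla lay below the cortex by a log2 difference of -1.14 ± 0.27 (edgeR adjusted p = 0.00161), with adjusted p of 0.067 and 0.17 when either ischemic section was left out.

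In the normal sections Sox9 was at or near the counting limit in every zone, with 0 to 6 UMIs a zone. Inner stripe of normal section 1 had 0 UMIs, which allows up to 0.532 CPM before TMM scaling, and inner medulla of normal section 2 had 0 UMIs, which allows up to 2.13 CPM. The ischemic rise was 5.56 ± 0.39 in the cortex and 6.46 ± 0.44 in the outer stripe on the log2 scale (edgeR adjusted p = 1.78e-09 and 4.36e-10). In the inner stripe 93 ischemic UMIs stood against 1 normal UMI, a ratio per total UMIs of 87.3 with an exact 95% counting interval of 15.3 to 3485. The edgeR difference there was 5.83 ± 0.75 on the log2 scale (adjusted p = 3.17e-06), or 56.8-fold, and kept its call with a range from 4.5996 without normal section 1 to 8.73 without normal section 2. In the inner medulla 42 UMIs stood against 3, all 3 in normal section 1, a ratio of 7.14 with a counting interval of 2.28 to 36.0. The edgeR difference in the inner medulla, 2.64 ± 0.76 (adjusted p = 0.0112), lost its call without normal section 2 or either ischemic section, and ranged from 1.29 to 8.27 with 1 section left out. In the pelvis, with 2.78 and 0.57 CPM in normal sections, it was 3.08 ± 0.63 (edgeR adjusted p = 0.00144), a call lost without ischemic section 1 and with zones scored from each spot alone (2.21, adjusted p = 0.143). The test across zones did not separate the inner medulla from the cortex for the Sox9 rise (log2 difference -3.12 ± 1.25, edgeR adjusted p = 0.112), although it passed under DESeq2 (adjusted p = 0.03) and without normal section 2, and its sign reversed without normal section 1.

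Sox4 had the opposite depth profile. In the ischemic sections it measured 22.5 and 20.7 CPM in the cortex and 22.7 and 22.0 CPM in the outer stripe, against 41.8 and 45.1 CPM in the inner stripe and 45.3 and 60.95 CPM in the inner medulla. The inner medulla exceeded the cortex by 1.28 ± 0.14 on the log2 scale (edgeR adjusted p = 3.37e-07), whereas the outer stripe differed by 0.04 ± 0.14 (edgeR adjusted p = 0.848). In the normal sections the pelvis was highest, at 19.5 and 25.2 CPM, and the other zones held 6.52 to 12.5 CPM. There the outer stripe lay below the cortex by -0.58 ± 0.18 (edgeR adjusted p = 0.0242), a call that was lost when any 1 section was left out and without the section block.

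The log2 ischemic difference of Sox4 was 1.13 ± 0.17 for cortex, 1.76 ± 0.19 for outer stripe, 2.25 ± 0.21 for inner stripe and 2.38 ± 0.27 for inner medulla, each past the threshold in edgeR's test. In the pelvis, with 19.5 and 25.2 CPM in normal and 26.4 and 34.6 CPM in ischemic sections, it was 0.44 ± 0.26 (edgeR adjusted p = 0.23). The difference in the inner stripe exceeded that in the cortex by 1.10 ± 0.25 (edgeR interaction test, adjusted p = 0.00309), and that in the inner medulla exceeded the cortex by 1.27 ± 0.31 (adjusted p = 0.00983). That of the outer stripe exceeded the cortex by 0.62, which missed the threshold (adjusted p = 0.0564) and passed it in 5 of 11 alternative settings. Without ischemic section 2 the values of inner stripe and inner medulla were 1.00 and 1.02 with adjusted p of 0.074 and 0.16. With zones scored from each spot alone the inner medulla interaction was 0.28 (edgeR adjusted p = 0.585), and the inner medulla difference itself was 1.45 and kept its call. With 1 section left out that difference ranged from 2.14 without normal section 1 to 2.99 without normal section 2.

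Cd24a, like Sox4, was highest in the deep zones. Its ischemic levels were 2233 and 2227 CPM in the inner stripe, 2076 and 2142 CPM in the inner medulla, 1351 and 1349 CPM in the pelvis, 958 and 904 CPM in the outer stripe and 544 and 462 CPM in the cortex. The order of zones was the same in both ischemic sections. The inner stripe was the highest zone in the normal sections too, at 524 and 594 CPM. The log2 rise was 1.90 ± 0.19 in the cortex and 2.32 ± 0.19 in the inner medulla, and no interaction with zone passed the threshold (edgeR adjusted p = 0.556, 0.801 and 0.216 for the outer stripe, inner stripe and inner medulla). The interaction of the inner medulla, 0.43, passed with no filter on low counts (0.54, edgeR adjusted p = 0.00618) and without normal section 2 (0.99).

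Vim, the filament gene, differed between zones in its rise. In the outer stripe it went from 25.3 and 32.1 CPM to 186 and 195 CPM, a log2 fold change of 2.73 ± 0.31 (edgeR adjusted p = 3.71e-07). In the inner stripe it went from 32.4 and 38.1 CPM to 175 and 166 CPM (2.29 ± 0.32, edgeR adjusted p = 7.71e-06), and in the cortex from 32.7 and 59.7 CPM to 81.3 and 92.1 CPM (0.91 ± 0.29, edgeR adjusted p = 0.0163). The cortex call, and that in the pelvis (0.97 ± 0.32, from 78.5 and 83.6 CPM to 184 and 133 CPM), was lost without either ischemic section, and the cortex value ranged from 0.45 to 1.40 with 1 section left out. The inner medulla held 258 and 101 CPM in the normal sections and 214 and 190 CPM in the ischemic sections, so the groups overlapped there (0.20 ± 0.30, edgeR adjusted p = 0.648). Without normal section 1 that value was 1.06 and passed the threshold, and without normal section 2 it was -0.36 and did not. With zones scored from each spot alone it was 0.63 and passed too (edgeR adjusted p = 0.00645).

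The rise of Vim in the outer stripe exceeded that in the cortex by 1.80 ± 0.37 on the log2 scale (edgeR interaction test, adjusted p = 0.00137), and in the inner stripe by 1.35 ± 0.39 (adjusted p = 0.0195). Leaving out either ischemic section raised these adjusted p-values to between 0.076 and 0.28, and the inner stripe call was also lost when only spots with a margin of at least 0.25 SD between their zone scores were kept (1.11, adjusted p = 0.109). Markers of other cells were followed beside Vim, and their counts stand against 60.6% of all genes called in whole sections (31.0% upward), near which the called shares of endothelium and macrophage markers lay. Of the 7 stroma markers 5 rose and 2 (Dcn and Lum) fell in whole sections, with a summed level of 211.3 to 289.5 CPM in normal and 473.3 to 485.4 CPM in ischemic sections. By zone, the summed stroma level went from 216 to 218 CPM up to 486 to 488 CPM in the outer stripe, from 243 to 251 CPM up to 681 to 741 CPM in the inner stripe, and from 177 to 308 CPM up to 321 to 370 CPM in the cortex. In the inner medulla the groups overlapped, at 694 to 864 CPM in normal and 648 to 748 CPM in ischemic sections. The 4 neutrophil markers all rose, from a summed 1.3 to 1.6 CPM to 158.1 to 158.8 CPM, and were highest in the ischemic outer stripe at 326.8 to 332.4 CPM. Of the 6 endothelium markers 3 rose and 1 fell (399.0 to 450.5 CPM against 493.5 to 525.2 CPM), and of the 7 macrophage markers 1 rose and 4 fell (238.1 to 282.5 CPM against 205.5 to 212.7 CPM). Each of these lists had no marker at 0 in any whole section, and their part in the Vim result was not tested. Of the 4 podocyte markers 1 rose and 2 fell (75.7 to 87.4 CPM against 89.4 to 94.3 CPM), the 5 T cell markers all fell (16.7 to 28.1 CPM against 2.12 to 2.27 CPM), and so did the 2 B cell markers tested (4.47 to 5.797 CPM against 0.942 CPM, with Ms4a1 at 0 in both ischemic sections). The 5 red cell markers fell from 9074 to 10748 CPM down to 699 to 1466 CPM.

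Prom1 did not pass the test in the outer zones. In the cortex it had 45.3 and 41.6 CPM in normal and 39.8 and 39.5 CPM in ischemic sections (-0.13 ± 0.23, edgeR adjusted p = 0.679), and in the outer stripe 31.4 and 31.6 CPM against 32.7 and 40.5 CPM (0.21 ± 0.24, adjusted p = 0.455). In the inner medulla it rose from 21.7 and 51.1 CPM to 88.1 and 115 CPM, a log2 fold change of 1.39 ± 0.29 (edgeR adjusted p = 0.000911) that ranged from 1.05 to 2.22 with 1 section left out. This rise exceeded that in the cortex by 1.53 ± 0.28 (edgeR interaction test, adjusted p = 0.00087), by 1.37 with an adjusted p of 0.068 without ischemic section 2, and by 2.39 without normal section 2. The inner stripe rose by 0.60 ± 0.24 (edgeR adjusted p = 0.0437), a call lost under DESeq2, with that zone margin (0.43) and when normal section 1 (0.38) or either ischemic section was left out. In the pelvis Prom1 went from 20.9 and 33.8 CPM to 54.8 and 91.5 CPM (1.40 ± 0.32, edgeR adjusted p = 0.00331), with an adjusted p of 0.15 without ischemic section 2. The inner stripe interaction was 0.74 ± 0.23 (adjusted p = 0.0294) and was lost in 5 of 11 alternative settings, namely DESeq2 (adjusted p = 0.096), without either ischemic section, with that zone margin (0.56) and without the section block (adjusted p = 0.177).

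Cdh6 increased with depth from the cortex to the inner medulla in each section. At 0.70 and 3.43 CPM in the normal pelvis, Cdh6 lay below the inner medulla of the same section. Its ischemic levels were 2.81 and 3.003 CPM in the cortex, 3.40 and 3.88 CPM in the outer stripe, 5.97 and 5.14 CPM in the inner stripe and 8.18 and 9.51 CPM in the inner medulla, with 10.4 and 7.19 CPM in the pelvis. The normal inner medulla was likewise above the normal cortex, by 1.94 ± 0.45 on the log2 scale (edgeR adjusted p = 0.00178), a call lost without normal section 2 and with that zone margin (1.10, adjusted p = 0.183). The ischemic rise was about 1 log2 unit in the cortex (1.05 ± 0.33), outer stripe (1.07 ± 0.34) and inner stripe (1.19 ± 0.39), and each of these calls was lost in edgeR's test when normal section 1 or either ischemic section was left out. The inner stripe value was 0.71 without normal section 1, its call was also lost with that zone margin, and the outer stripe call with zones scored from each spot alone. A zone of 1 section held as few as 1 and at most 33 Cdh6 UMIs, which limits the precision of these values. In the inner medulla the difference was 0.60 ± 0.41 (edgeR adjusted p = 0.278), and in the pelvis 1.99 ± 0.54 (adjusted p = 0.0106), again lost without normal section 1 or either ischemic section, with a range of 1.40 to 3.61, and at 0.94 with zones scored from each spot alone (adjusted p = 0.547).

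**Figure D2:**
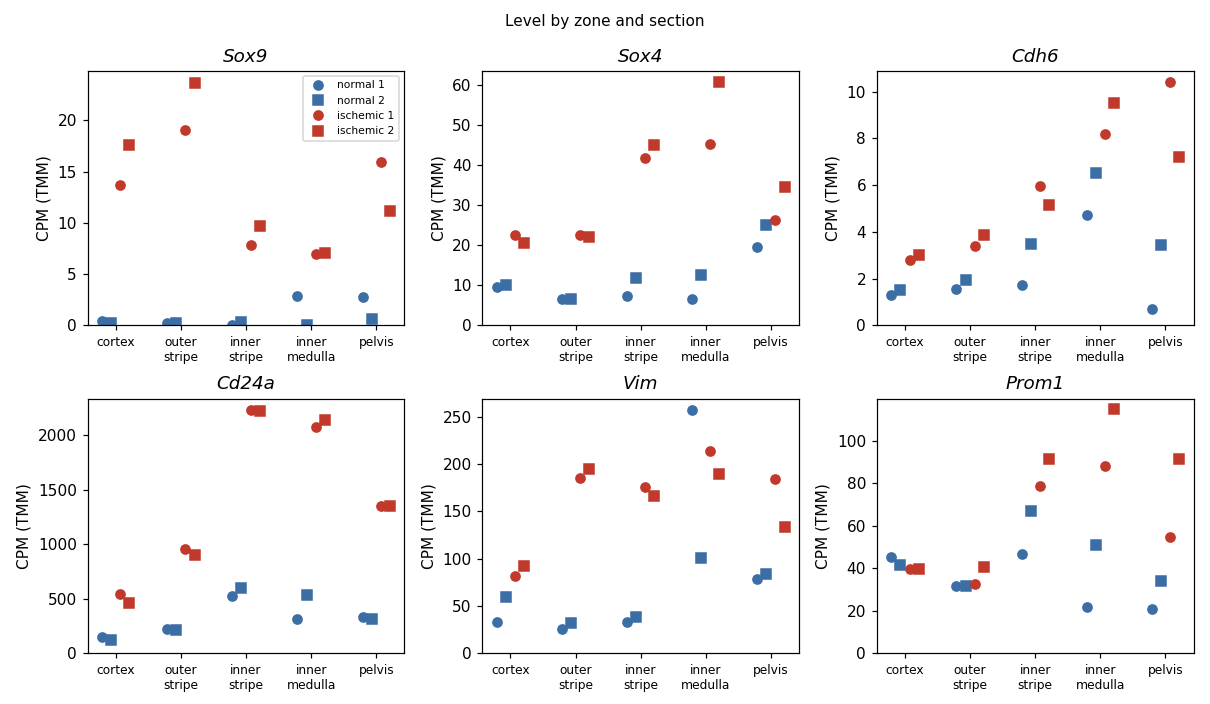
Level of each gene (TMM-scaled CPM, vertical axis starting at 0) by zone, with blue for normal and red for ischemic sections, circles for replicate 1 and squares for replicate 2. Ischemic Sox9 peaks in the outer stripe at 19.1 and 23.7 CPM, while ischemic Sox4 peaks in the inner medulla at 45.3 and 60.95 CPM.

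**Figure D3:**
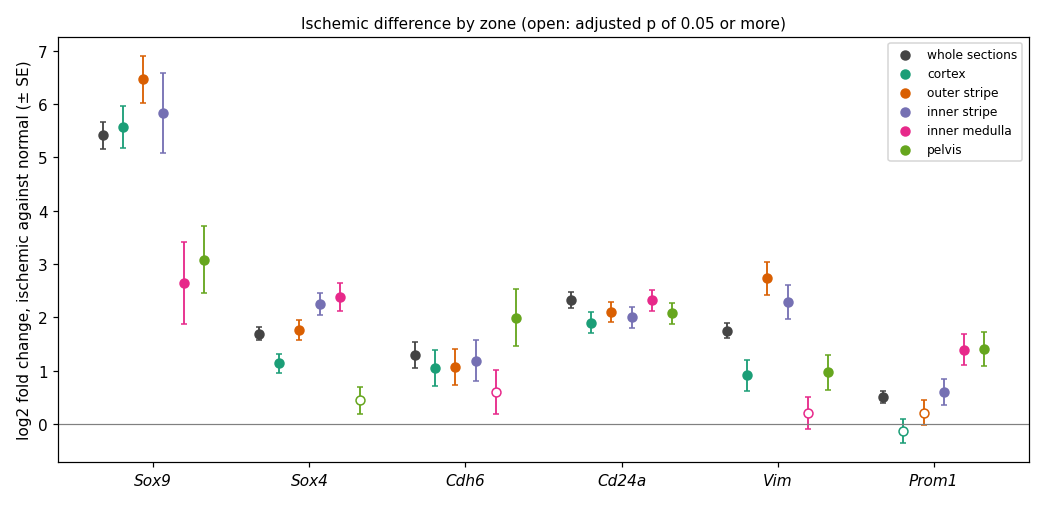
Log2 fold change of ischemic against normal sections (vertical axis) with its standard error for each gene in whole sections and in each zone, where filled points passed the adjusted p threshold of 0.05 in edgeR's test and open points did not. Sox9 has the largest value in whole sections and in each zone. Its error bar in the inner medulla (2.64 ± 0.76) overlaps those of Sox4 and Cd24a, and its error bar in the pelvis overlaps that of Cdh6. Vim peaks in the outer stripe at 2.73, and Prom1 lies near 0 in the cortex and at 1.39 in the inner medulla.

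Zones were also set against the cortex within each condition for the 6 genes together. In normal sections the outer stripe exceeded the cortex for 1 gene (Cd24a, 0.69 ± 0.15) and fell below it for 2 (Sox4, and Prom1 at -0.47 ± 0.16, lost under DESeq2, without either ischemic section and without the section block), where 22.8% of all genes were called. Vim was at -0.67 there (adjusted p = 0.095) and passed as lower in 4 of 11 alternative settings. The normal inner medulla exceeded the cortex for 3 genes (Cdh6, Cd24a and Vim, at 1.94, 1.64 and 1.92 on the log2 scale), where 40.2% were called. With 1 section left out, Vim kept its call but ranged from 0.62 (without normal section 1) to 2.97 (without normal section 2), and Cd24a ranged from 1.07 to 1.99. In ischemic sections the outer stripe exceeded the cortex for 2 genes (Cd24a at 0.89 and Vim at 1.13), where 36.2% were called. The Cd24a call was lost without ischemic section 2 and the Vim call without either ischemic section. The ischemic inner medulla exceeded the cortex for 5 genes and lay below it for 1, Sox9, where 45.6% were called. Of the 5, Vim lost its call without ischemic section 1. The change of the ischemic difference against cortex passed for 1 gene in the outer stripe (21.5% of all genes called), for 3 in the inner stripe (19.0%) and for 2 in the inner medulla (13.0%). That of Vim in the inner medulla, -0.70 (adjusted p = 0.257), passed in 3 of 11 alternative settings, as 0.62 without normal section 1, -1.75 without normal section 2 and -0.58 with no filter on low counts.

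The share of spots with a transcript was higher in ischemic than in normal sections for Sox9 and Sox4. Sox9 had at least 1 UMI in 14 of 2616 spots of normal section 1 (0.535%, exact 95% interval 0.293% to 0.896%) and in 6 of 2682 spots of normal section 2 (0.224%). In the ischemic sections 354 of 2401 spots (14.7%, 13.4% to 16.2%) and 369 of 2613 spots (14.1%, 12.8% to 15.5%) held one. After each spot was thinned to 2000 UMIs, so that depth was equal, the Sox9 shares were 0.117% and 0.079% of normal spots and 2.05% and 3.63% of ischemic spots. Sox4 had a UMI in 10.2% and 8.58% of normal spots and 29.0% and 25.0% of ischemic spots, and 1.36% and 1.90% against 5.55% and 7.06% after thinning. Intervals cover counting error only.

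By zone, ischemic Sox9 was seen in 24.0% and 23.3% of outer stripe spots, 13.9% and 13.5% of cortex spots, 8.62% and 8.59% of inner stripe spots and 7.19% and 6.00% of inner medulla spots. Sox4 was seen in 28.0% and 22.0% of outer stripe spots, 22.5% and 15.9% of cortex spots, 40.6% and 32.9% of inner stripe spots and 35.3% and 42.7% of inner medulla spots. Spots of the outer stripe were the deepest, at a median of 15657 and 11912 UMIs in the ischemic sections, so these unthinned shares also carry depth. At 2000 UMIs a spot the Sox9 shares were 3.27% and 6.55% for outer stripe, 1.84% and 4.26% for cortex, 1.42% and 1.10% for inner stripe, and 0.707% and 0% for inner medulla. The last of these is 0 of 295 spots, which allows a share of up to 1.02%.

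**Figure D4:**
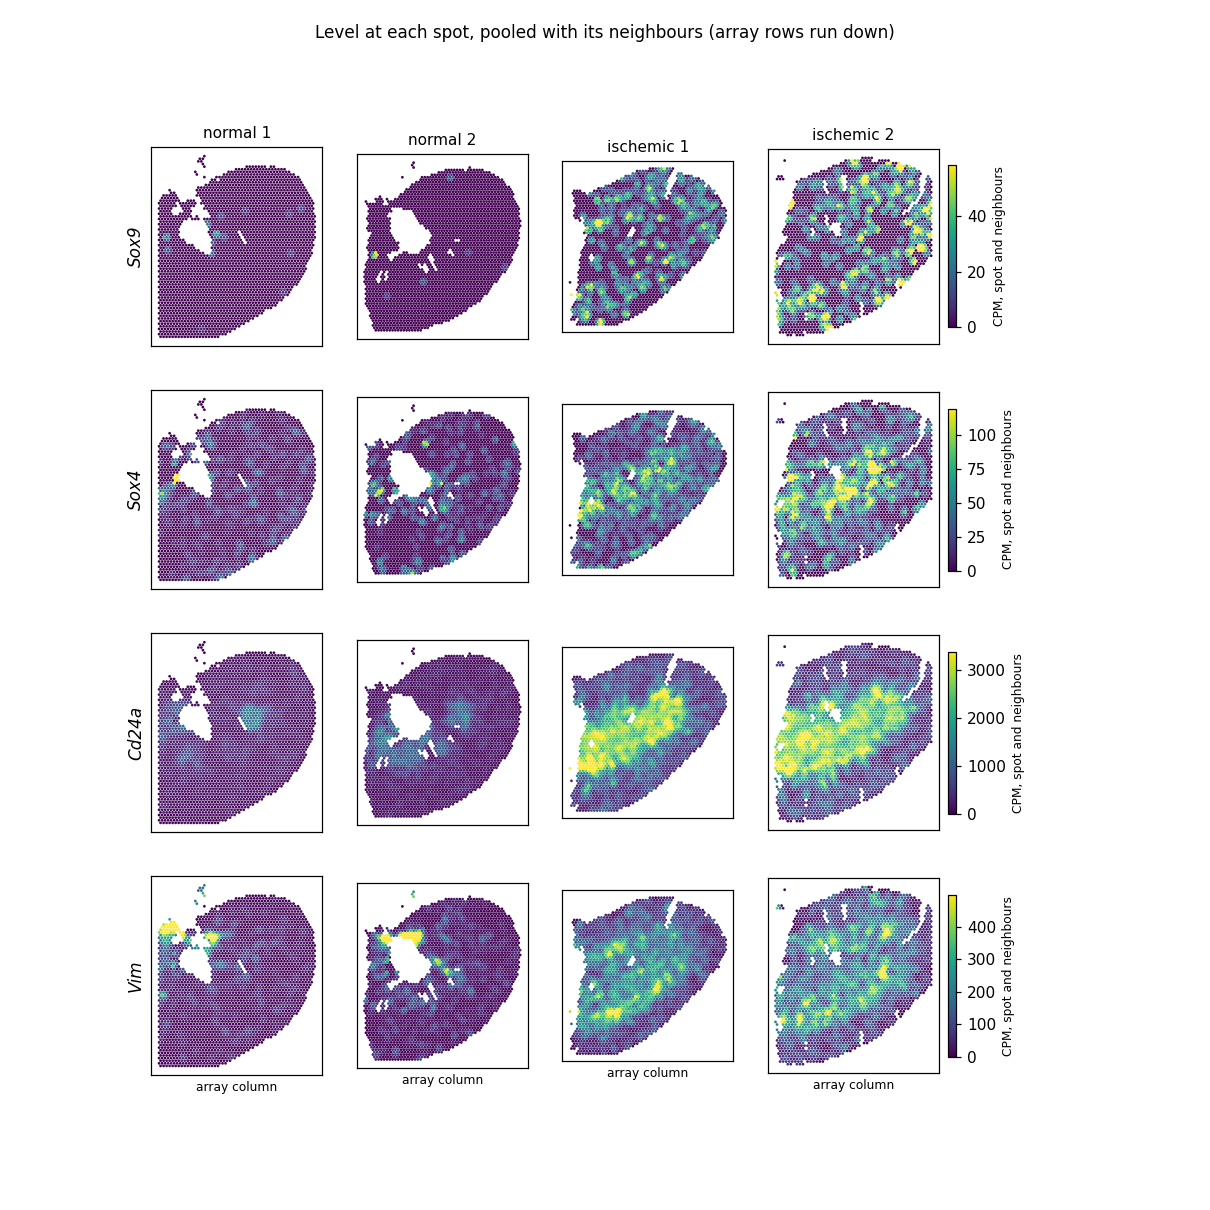
Maps of the 4 sections (columns) for Sox9, Sox4, Cd24a and Vim (rows), where each point is a spot at its place in the capture array and colour gives CPM pooled over the spot and its up to 6 neighbours, on 1 scale per gene. Ischemic Sox9 lies scattered over the outer kidney, Sox4 and Cd24a fill the inner zones, and ischemic Vim spreads over the outer stripe and the inner zones, while normal Vim is brightest at the upper left edge of the section.

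The third question was whether the 6 genes were found in the same spots. Co-expression is given as Spearman's correlation of CPM across the spots of 1 section, as a description, since spots of a section share a library and neighbours share tissue. Sox9 with Sox4 stood near 0, at 0.03 and 0.00 in ischemic sections 1 and 2 and 0.03 and 0.01 in the normal sections. With CPM pooled over neighbours the ischemic values were -0.09 and -0.07. Both genes had a UMI in 121 of the spots of ischemic section 1, where the product of their shares gives 102.8, and in 101 spots of ischemic section 2, where it gives 92.4. Spots differ in depth, and these counts are without thinning, so they also carry depth.

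The injury genes went with different members in the ischemic sections. Sox9 went with Havcr1 at 0.21 and 0.21 (0.35 and 0.34 over pooled neighbours) and against Lcn2 at -0.08 and -0.12. Sox9 CPM also went with a spot's total UMIs at 0.20 and 0.21, and after thinning to 2000 UMIs the relation with Havcr1 was 0.07 and 0.10. Within the outer stripe alone it was 0.15 and 0.20, and 0.10 and 0.012 after thinning. Within the cortex it was 0.15 and 0.13, and -0.0016 and 0.054 after thinning. The thinned values within both zones were small. Thinning left Sox9 in only 1.84% and 4.26% of cortex spots, and the part of such sparse counts in these values was not tested.

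Sox4, Cd24a and Prom1 went the other way, in values without thinning that also carry depth. With a spot's total UMIs Sox4 CPM stood at 0.09 and 0.09, Cd24a at -0.29 and -0.16 and Prom1 at -0.019 and -0.0016. Sox4 stood at 0.23 and 0.26 with Lcn2 and at -0.15 and -0.17 with Havcr1. Cd24a stood at 0.85 and 0.84 with Lcn2 and at -0.56 and -0.59 with Havcr1, and Prom1 at 0.29 and 0.36 with Lcn2 and at -0.27 and -0.28 with Havcr1. Between the 6 genes the strongest ischemic pairs were Cd24a with Prom1 (0.28 and 0.32), Cd24a with Vim (0.32 and 0.19) and Sox4 with Cd24a (0.23 and 0.23). In the normal sections these 3 pairs stood at 0.08 and 0.20, 0.10 and 0.06, and 0.09 and 0.10.

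Some values within single zones differed from those over all spots. Within the ischemic inner stripe, Sox4 with Cd24a was 0.09 and 0.09 and Cd24a with Prom1 was 0.10 and 0.11. Within the outer stripe, Cd24a with Lcn2 was 0.86 and 0.86, as high as over all spots. Cd24a with Vim was 0.27 and 0.25 in the outer stripe but -0.18 and -0.31 in the inner medulla. Cdh6 stayed within 0.10 of 0 with every other gene of the 6 over all ischemic spots.

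Summed markers were also set against each gene, without thinning, so that these values carry depth. Across ischemic spots the summed differentiated proximal tubule genes stood at 0.16 and 0.19 with Sox9, no larger than the 0.20 and 0.21 of Sox9 with a spot's total UMIs. They stood at -0.082 and -0.10 with Cdh6, -0.21 and -0.23 with Sox4, -0.72 and -0.74 with Cd24a, -0.30 and -0.19 with Vim and -0.32 and -0.33 with Prom1. Vim went with summed stroma markers at 0.45 and 0.31, endothelium at 0.40 and 0.29, macrophage at 0.39 and 0.28 and neutrophil at 0.24 and 0.21. Sox9 stood between -0.10 and 0.08 with each of the 8 lists of other cells in the ischemic sections.

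**Figure D5:**
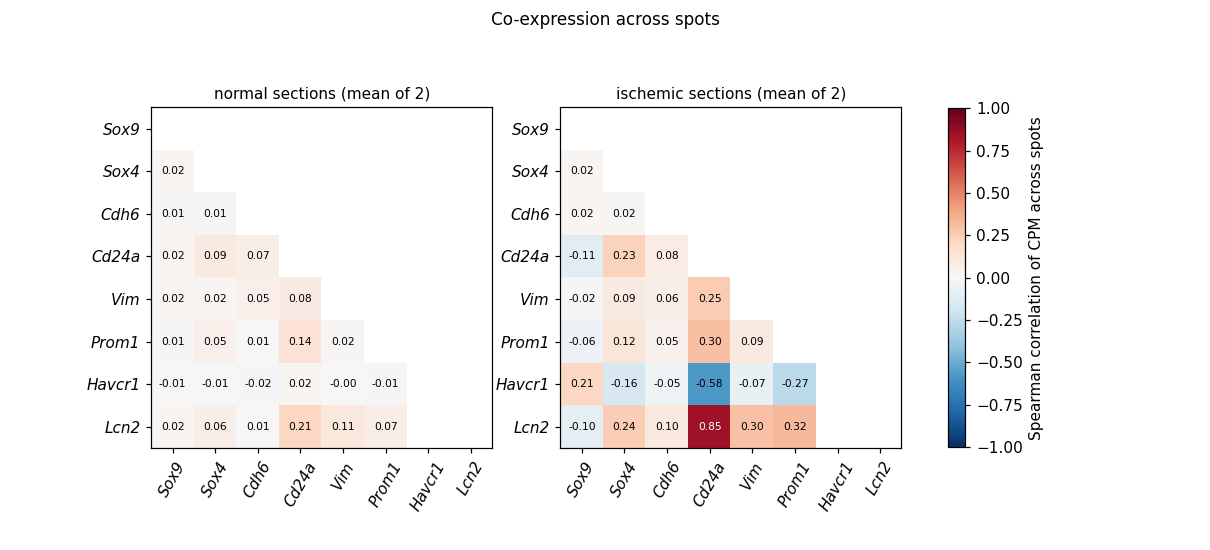
Spearman's correlation of CPM across all spots for each pair of the 6 genes and the injury genes Havcr1 and Lcn2, averaged over the 2 normal sections (left) and the 2 ischemic sections (right). In the ischemic panel Sox9 is the only one of the 6 with a positive value against Havcr1 (0.21), and Cd24a is the most positive against Lcn2 (0.85).

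Spots that held several of the 6 genes became common. At least 1 UMI of exactly 3 genes was found in 11.7% and 10.3% of normal spots and in 32.9% and 30.6% of ischemic spots, and of exactly 4 genes in 1.07% and 1.27% against 16.5% and 13.2%. All 6 were found together in 6 and 2 spots of the ischemic sections and in none of the normal sections. Normal section 1 had the highest median depth of the 4 sections.

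Genes around the 6 were followed in lists, whose counts stand beside 60.6% of all genes called in whole sections and 31.0% called upward. Of the 9 other SOX factors tested, 4 rose and 3 fell in ischemic whole sections (median log2 fold change 0.40, against 0.04 over all genes). Sox11, which belongs to the same subgroup as Sox4, rose by 2.09 ± 0.44 (edgeR adjusted p = 0.00306) from 10 to 42 UMIs in all. Sox15 fell by 2.07 ± 0.52 (adjusted p = 0.00756), and Sox7 and Sox18 rose by 1.11 ± 0.24 and 1.10 ± 0.30. None of these came near the rise of Sox9.

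Of 15 kidney development regulators tested 5 rose and 4 fell, with a median of 0.04. Pax2, a nephron lineage factor, rose by 0.97 ± 0.22 (edgeR adjusted p = 0.00421). Cited1, a gene of nephron progenitors, rose by 1.598 ± 0.48 (adjusted p = 0.0166) from 14 to 41 UMIs in all. Lhx1, which patterns the early nephron, fell by 2.03 ± 0.36 (adjusted p = 0.00102), and Ncam1, an adhesion gene of early nephrons, rose by 0.93 (adjusted p = 0.00967).

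Of 18 genes of the EGF receptor, Notch and YAP pathways, which are known to act on Sox9 in tubule cells, 16 rose and none fell (median 0.77). Ankrd1, a YAP target, rose by 3.79 ± 0.14 and the EGF receptor ligand gene Areg by 3.40 ± 0.50, with edgeR adjusted p of 1.63e-07 and 0.000341. Areg was sparsely counted, with 5 UMIs in all in the normal and 54 in the ischemic sections. Hbegf, another ligand, rose by 1.69 ± 0.10 and the YAP target Ccn2 by 1.58 ± 0.22.

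Of 25 injured tubule genes 23 rose (median 2.39), led by Havcr1 at 9.64 ± 0.28, Lcn2 at 8.78 ± 0.27, the keratin gene Krt20 at 8.64 ± 0.18 and Spp1 (osteopontin) at 4.999 ± 0.33. Of 20 differentiated proximal tubule genes 17 fell (median -2.02), led by Miox at -3.84 ± 0.20, Gatm at -3.49 ± 0.15, Ass1 at -3.21 ± 0.14 and Napsa at -3.10 ± 0.21, all enzymes of the proximal tubule. In the inner stripe all 20 were lower, where 48.2% of all genes tested were called. In the outer stripe and the inner medulla 18 were lower (56.9% and 35.1% called), and in the cortex 13 were lower and 1 higher (40.1% called).

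Of 8 other cadherins tested 4 rose and 2 fell (median 0.49). Cdh3 (P-cadherin) rose by 2.17 ± 0.21 and Cdh11 by 1.26 ± 0.23, Cdh1 (E-cadherin), the main adhesion gene of epithelium, rose by 0.72, and Cdh13 fell by 1.96 ± 0.21. Of 18 mesenchymal transition genes 14 rose (median 1.03). Snai1, a transcription factor that represses epithelial genes, rose by 2.47 ± 0.25, S100a6 by 2.34 ± 0.26, and the collagen genes Col3a1 and Col1a1 by 2.06 ± 0.17 and 1.83 ± 0.17.

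The genes whose levels ran most like each member were read from Pearson's r of log2 CPM over the 20 sums of section and zone, which share sections and libraries. Nearest to Sox9 were Bnip1 (0.96), Wwtr1 (0.96), Krt20 (0.96) and Trp53 (0.96), and nearest to Sox4 were Bzw2, Nfe2l2, Prss22, Cdh3 and Wipf1 (each 0.95). Over the 10 ischemic sums alone the nearest to Sox9 were Smpdl3b, Apoc3, Sem1, Cdhr2 and Otud6b (0.97 to 0.95), and the nearest to Sox4 were Adgrf5, Ndst1, Tgfbr1, Fibin and Gtpbp2 (0.98 to 0.96). Over the 20 sums Cd24a ran nearest to Myo3b (0.98), Slc2a1, St14, Masp1 and Ankrd1, and Vim nearest to Flna (0.98), Emp3, Tgfbi, Col3a1 and Fxyd5. Cdh6 ran nearest to Grasp (0.93), Grk5, Mrc2, Colec12 and Fmnl2, and Prom1 nearest to Leng8 (0.92), Adgrg3, Man2a2, Oat and Srrm2.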

How the data were processed

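RNA of 4 kidney sections was measured on Visium spots. The files deposited by the authors hold UMI counts that are not normalized, per gene in each spot, made with Space Ranger 1.3.0 against build mm10. Counts over tissue spots were summed per section, and per section and zone for zones of at least 20 spots. Zones were set from marker lists over a spot and its up to 6 neighbours (pelvis needed 10 counts and the top 5%). Sums were tested with edgeR 4.0.16 in R 4.3.3 (TMM, filterByExpr, quasi-likelihood test, Benjamini-Hochberg over all genes tested, threshold 0.05). Sums of all zones were fitted together. Zones were compared within a condition, and their ischemic differences with each other, with section as a block. Ischemic against normal within a zone had no such block. DESeq2 1.42.0, other scaling, no filter, other zones and leaving out each section were alternatives. Shares of spots have exact (Clopper-Pearson) 95% intervals, and spots were thinned to 2000 or 4000 UMIs. Co-expression used spots of at least 100 UMIs. The members and gene lists were chosen with earlier results of these data known. Named in each list were up to 4 genes with the largest change past the threshold in whole sections, and for each member the 5 genes with the highest Pearson correlation (prior count 2), of which 1 is not reported here. On simulated counts edgeR recovered 76.5% and 98.0% of genes changed by 1 and 2 log2 units in whole sections, 70% and 100% in the outer stripe, and 20% and 88% for the inner stripe interaction. The changed genes held a mean of at least 10 UMIs over the sums. Their spread was fixed, and the zones of a section shared no effect. Such rates do not cover genes as sparse as Sox9 in normal zones.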

Additional observations from a re-analysis of the deposited data

Results flagged for a closer look

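In 6 cases the ischemic difference of a gene was not the same in a deeper zone as in the cortex by edgeR's interaction test, with 2 sections a group. For Sox4 the log2 difference was larger by 1.10 ± 0.25 in the inner stripe and by 1.27 ± 0.31 in the inner medulla. For Vim it was larger by 1.80 ± 0.37 in the outer stripe and by 1.35 ± 0.39 in the inner stripe. For Prom1 it was larger by 0.74 ± 0.23 in the inner stripe and by 1.53 ± 0.28 in the inner medulla. Each of the 6 lost its call without ischemic section 2, and those of Vim and the inner stripe value of Prom1 also without ischemic section 1. Both inner stripe values of Vim and Prom1 also lost their calls with a zone margin of at least 0.25 SD (1.11 and 0.56), that of Prom1 also under DESeq2 and without the section block, and the inner medulla value of Sox4 with zones scored from each spot alone (0.28).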

How the results depend on the processing

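Of 78 tested results 33 kept their direction and side of the threshold under every setting tried and 45 changed in at least 1. The whole-section calls of Sox9, Sox4, Cdh6, Cd24a and Vim, and the ischemic-against-normal calls of Cd24a in each zone, were kept. Leaving out a section leaves 1 in its group, which is then assumed to vary like the others. Depth limits Sox9 in normal zones, where 0 to 6 UMIs were counted, and Cdh6 throughout. The cause of the changes below was not tested. Calls were also gained, for Prom1 and Sox4 in normal inner medulla against cortex with zones from the spot alone (-0.47 and 0.62) and for the Prom1 interaction in the outer stripe with no filter (0.46). With library sizes only, the median of all genes moved from 0.04 to 0.31 in whole sections.

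Replicate numbers are shared by the groups but the labels do not pair the sections. Deviations of same-numbered sections correlated at 0.162, and with the replicate number as a block the whole-section values were 5.39 for Sox9, 1.69 for Sox4, 1.31 for Cdh6, 2.32 for Cd24a, 1.76 for Vim and 0.50 for Prom1, with no call of the 6 genes changed and 10089 genes called.

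Log2 differences with library sizes only were 0.092 for Prom1 in the cortex, 0.21 for Prom1 between normal inner medulla and cortex, and 0.81 for the Sox4 interaction in the outer stripe. With upper-quartile factors the Sox9 ischemic outer stripe against cortex was 0.49 and the Sox4 interaction 0.69. With no filter these were 0.53 and 0.75, and Sox4 in normal inner medulla against cortex was -0.068. DESeq2 gave -0.042 for the last and -3.14 for the Sox9 interaction in the inner medulla. With zones from the spot alone Sox9 in the pelvis was 2.21, Sox4 in normal inner medulla against cortex 0.62, Sox9 and Cdh6 in ischemic outer stripe against cortex 0.48 and -0.12, and the interactions were 0.79 (Sox4) and -0.51 (Cdh6) for the outer stripe, -0.027 (Cd24a) and -0.30 (Cdh6) for the inner stripe and 0.28 (Sox4) for the inner medulla, with 2248 genes called in the pelvis. With a margin of at least 0.25 SD between zone scores, Sox9 in ischemic outer stripe against cortex was 0.60, and the interactions were 0.77 (Sox4, outer stripe), -0.090 (Cd24a, inner stripe), -0.55 (Sox9, inner stripe) and 0.61 (Cdh6, inner medulla). Without the section block Sox4 in normal outer stripe against cortex was -0.58 (2134 genes called), and 1665, 1576 and 1027 genes were called for the interactions of outer stripe, inner stripe and inner medulla.

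With 1 section left out, the ischemic difference ranged from 0.37 to 0.67 for Prom1 in whole sections, from -0.36 to 1.06 for Vim in the inner medulla, and for Sox9 from 1.29 to 8.27 in the inner medulla and from 2.27 to 4.56 in the pelvis. Against the normal cortex the outer stripe ranged from -0.93 to 0.37 (Sox9) and -0.64 to -0.54 (Sox4), and the inner medulla from -1.06 to 0.16 (Prom1), -3.30 to 2.80 (Sox9) and -0.55 to 0.17 (Sox4). Against the ischemic cortex the outer stripe ranged from -0.28 to 0.040 (Prom1), 0.41 to 0.48 (Sox9) and -0.0061 to 0.091 (Sox4), and the inner medulla from -1.31 to -0.98 (Sox9). Interactions ranged from -0.036 to 0.084 (Cdh6) for the outer stripe. Those of the inner stripe ranged from -0.023 to 0.32 (Cd24a), -1.51 to 3.48 (Sox9), 0.89 to 1.38 (Sox4) and -0.13 to 0.52 (Cdh6), and in the inner medulla from -1.75 to 0.62 (Vim), -3.95 to 2.17 (Sox9) and 1.02 to 1.82 (Sox4). Genes called ranged from 6493 to 10877 in whole sections, 2508 to 7090 in the cortex, 4220 to 7511 in the inner stripe, 2549 to 4598 in the inner medulla and 1099 to 3735 in the pelvis. They ranged from 2150 to 3574 for normal outer stripe against cortex, 1630 to 6611 for the same in ischemic sections, 3429 to 7248 for ischemic inner medulla against cortex, and 740 to 3848, 903 to 3628 and 514 to 2342 for the interactions, in the same order of zones. The low end of each of these counts came without an ischemic section.

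Of the co-expression values, 43 moved and 11 did not with CPM pooled over neighbours. After thinning to 2000 UMIs 34 moved and 20 did not, and as Pearson's r of log CPM 19 moved and 35 did not. Mean ischemic co-expression of Sox9 with Sox4 was -0.079 over pooled neighbours. That of Sox9 with Havcr1 was 0.35 pooled, 0.083 after thinning to 2000 UMIs and 0.16 as Pearson's r of log CPM. Thinned to 4000 UMIs, 3.57% of normal spots held Sox4, and 5.31% and 12.2% of ischemic spots held Sox9 and Sox4.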
